A study of Mus musculus with 6 samples.

Results

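Thy1 encodes Thy-1 (CD90), the classical surface marker of mouse T cells, and was 1 of the 55450 genes in the deposited tables and 1 of 14958 expressed highly enough to be tested. It was taken by its annotated name, after earlier results of these data had shown it lower with both ADAR2 constructs than with the empty vector. Its levels against the empty vector are therefore given as a description, without a test. The constructs were compared with each other by a test, since the choice did not name that contrast. The choice used the same construct libraries, so the test is not independent of it.

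RNA was sequenced from cultured Th17 cells, the interleukin 17 producing class of helper T cells. Naive CD4+ T cells of wild-type mice aged 8 to 12 weeks were activated with anti-CD3 and anti-CD28 antibodies, given TGF-beta and IL-6, transduced 24 h later with a retrovirus of the murine stem cell virus (MSCV) type, and kept in TGF-beta and IL-6 for a further 48 h. The 3 groups were ADAR2 WT (MSCV carrying the active RNA deaminase ADAR2), ADAR2 E396A (MSCV carrying a form of the enzyme with no deaminase activity) and empty vector (MSCV alone), with 2 libraries each. Activation, the cytokines and the transduction were thus common to all groups, and ADAR2 was overproduced from a retrovirus rather than altered at its own locus. The mice were 2 wild-type donors, called A and B, and each gave 1 library per group, so n = 2 donors in every group. The deposited columns name libraries but not groups. A library in both tables was read as an empty-vector one, and a library in 1 table as the construct in that table's name, so the construct labels rest on the table names. The donor of each library was inferred from the deposited statistics. Values are given for donor A, then donor B.

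Thy-1 is a small glycoprotein with a fold of the immunoglobulin type. It has no cytoplasmic part: a glycosylphosphatidylinositol (GPI) lipid, added in the endoplasmic reticulum, holds it in the outer leaflet of the membrane, where it gathers in lipid rafts with Src-family kinases. In the mouse it is carried by thymocytes, peripheral T cells, neurons and some fibroblasts, and cross-linking it with antibody can send an activating signal into T cells.

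The libraries held between 16496328 and 21897166 reads assigned to genes. T cell genes were abundant in all 6 libraries. The summed level of 19 T cell surface glycoprotein genes was 249500 and 250800 normalized counts with ADAR2 WT. It was 247000 and 253400 with ADAR2 E396A, and 261600 and 251200 with the empty vector. Il2ra, the interleukin 2 receptor alpha chain gene, was the largest part of each sum, with a mean of 118871. Against the empty vector, log2 fold changes were negative for 14 of 19 with ADAR2 WT and 15 with ADAR2 E396A. Over all tested genes 50.4% and 53.1% were negative. Il17a, the defining Th17 cytokine gene, was detected in every library, at 6602 and 17878 normalized counts with ADAR2 WT. It was at 2616 and 18145 with ADAR2 E396A, and 2437 and 9279 with the empty vector, so that donor B was the higher in each group. Of the other listed Th17 markers, Il17f was also higher with ADAR2 WT than with the empty vector in both donors. Rora (4964 and 5854 against 6672 and 7233), Il23r (1852 and 2122 against 2382 and 2301) and Ccr6 (338.8 and 818.0 against 626.9 and 927.1) were lower in both. With ADAR2 E396A, Il17f, Rora, Il23r and Ccr6 were lower than with the empty vector in donor A and higher in donor B. The 6 B cell markers summed to between 29.2 and 55.4 in the 6 libraries, with Ms4a1 at 0, the 9 myeloid markers to between 52.2 and 81.9, with C1qa and C1qb at 0, and the 3 gamma-delta T cell markers with an annotated name to between 23.6 and 47.3. The 8 stromal and endothelial markers, a source of Thy-1 outside T cells, summed to between 220.1 and 361.7 normalized counts, most of it Pecam1. Of 6 CD8 and NK cell markers the sum was 432.0 and 516.9 with ADAR2 WT. It was 959.5 and 1500.0 with ADAR2 E396A, and 1384.0 and 1280.0 with the empty vector, with Ncr1 at 0. Klrc1 made up most of each sum. Against the empty vector, 3 of the 4 tested markers had a negative log2 fold change with ADAR2 WT. Cd8b1, a CD8 chain gene, did not, at 0.21 (SE 0.16). Mitochondrial transcripts took 0.496% and 0.443% of reads with ADAR2 WT, 0.462% and 0.404% with ADAR2 E396A, and 0.377% and 0.317% with the empty vector. The parts of the CD8 and NK sum and of the mitochondrial share in the levels of Thy1 were not tested.

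The Thy1 gene (ENSMUSG00000032011.5) lies on the plus strand of mouse chromosome 9 at chr9:44043384-44048579 in the mm10 build, and its annotated exons cover 2995 bases. GENCODE vM21 gives it 6 transcripts, of which Thy1-201 has 4 exons and a length of 1735 nucleotides, 486 of them coding. No other annotated gene overlaps it, so its reads had no annotated neighbour to be confused with.

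Thy1 was at less than the level of either empty-vector library in every library with a construct. Its normalized read count, scaled for library depth, was 10400 and 9596 with ADAR2 WT. With ADAR2 E396A it was 11407 and 11528, and with the empty vector 24304 and 21422. The 2 ADAR2 WT libraries were the lowest, the 2 ADAR2 E396A libraries stood just above them, and the 2 empty-vector libraries stood far above all 4, with no overlap between any of the groups. The group means were 9998 ± 569 with ADAR2 WT, 11468 ± 85.6 with ADAR2 E396A and 22863 ± 2038 with the empty vector (SD, n = 2 donors each). The lower empty-vector library was 1.86-fold above the highest construct library.

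These levels rested on many reads. The recovered reads of Thy1 were 10712 and 8317 with ADAR2 WT, 11579 and 13226 with ADAR2 E396A, and 23338 and 21997 with the empty vector. Counting error alone, the square root of the reads, came to between 0.655% and 1.1% of the value, far less than the distance between the constructs and the empty vector. In CPM, the usual scaling by assigned reads alone, Thy1 was at 532.2 and 504.2 with ADAR2 WT, 594.3 and 604.0 with ADAR2 E396A, and 1222 and 1118 with the empty vector. In bulk RNA, fewer cells carrying a transcript and less of it per cell cannot be told apart.

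Measured per kilobase of exon, so that genes can be set against each other, Thy1 was at 3472 and 3204 normalized counts per kilobase with ADAR2 WT, 3809 and 3849 with ADAR2 E396A, and 8115 and 7153 with the empty vector. Ranked on that scale among 14958 genes, it was number 189 and 193 with ADAR2 WT, 163 and 153 with ADAR2 E396A, and 68 and 67 with the empty vector. Thy1 thus remained among the abundant transcripts of the cells with either construct.

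Within each donor the construct libraries were set against the empty-vector library of the same mouse. With ADAR2 WT, Thy1 was at 42.8% and 44.8% of the empty-vector level. With ADAR2 E396A it was at 46.9% and 53.8% of that level. On the log2 scale the differences were -1.22 and -1.16 for ADAR2 WT and -1.09 and -0.89 for ADAR2 E396A, and over both donors -1.19 (SE 0.07) and -0.99 (SE 0.07). Each difference was negative in both donors, and all 4 lay between -1.22 and -0.89. The comparisons share their empty-vector libraries, so the likeness of the figures for the constructs is in part that of a common denominator. In the authors' deposited table for ADAR2 WT the log2 fold change of Thy1 is 1.19 (SE 0.0851), and in the authors' deposited table for ADAR2 E396A it is 0.99 (SE 0.129), both as empty vector over construct, that is with the opposite sign.

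**Figure D1:**
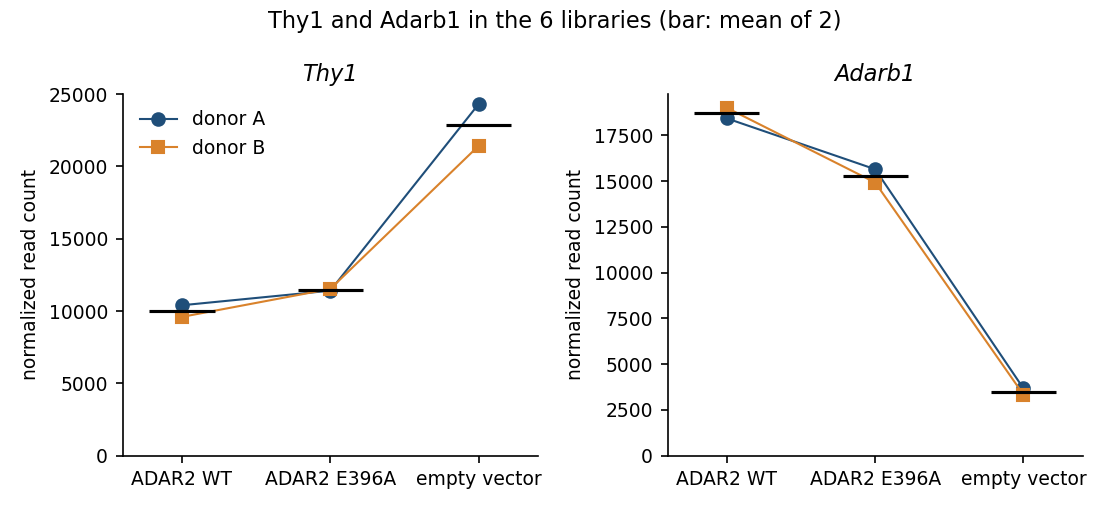
Normalized read counts of Thy1 (left) and Adarb1 (right) in the 6 libraries, with ADAR2 WT, ADAR2 E396A and empty vector from left to right; circles are donor A, squares donor B, lines join libraries of a donor and bars are the mean of 2. Thy1 lies between 9596 and 11528 in the 4 construct libraries, against 21422 and 24304 with the empty vector, while Adarb1 lies between 14920 and 18999, against 3332 and 3672.

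The labels name the retroviral vector only as MSCV. Some retroviral vectors carry a Thy-1 coding sequence as a surface marker of transduced cells, and gene-level counts would not separate reads of such a marker from reads of the chromosomal gene. The marker of the vectors, if any, is not given in the sources used here, and its part in the levels of Thy1 was not tested.

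Whether Thy1 differed between active and inactive ADAR2 was tested, on construct libraries that had also entered its choice. Thy1 was at 10400 normalized counts with ADAR2 WT, against 11407 with ADAR2 E396A in donor A, and at 9596 with ADAR2 WT, against 11528 with ADAR2 E396A in donor B. ADAR2 WT was lower in both donors, by 0.13 and 0.26 on the log2 scale, and the groups did not overlap. Over both donors the log2 difference, ADAR2 WT minus ADAR2 E396A, was -0.20 (SE 0.07, 95% interval -0.35 to -0.04 before adjustment). It did not pass limma's test over 14958 genes (unadjusted p = 0.018, adjusted p = 0.298). The interval allows a further lowering with ADAR2 WT of up to 0.35 on the log2 scale, small beside the distance of either construct from the empty vector. By order of level, ADAR2 WT and ADAR2 E396A were neighbours, with an interval before adjustment that leaves out 0 and a difference that did not pass over all genes, and the empty vector stood apart by 1.86-fold or more.

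Adarb1 (ENSMUSG00000020262.15, minus strand, chr10:77290726-77418270 in mm10, 11272 bases of exon), the gene of ADAR2, checks that the construct libraries carried it. It was at 18422 and 18999 normalized counts with ADAR2 WT, 15644 and 14920 with ADAR2 E396A, and 3672 and 3332 with the empty vector. The 4 construct libraries were all far above both empty-vector libraries. Its log2 fold changes were 2.42 for ADAR2 WT (SE 0.07, limma adjusted p = 2.21e-06) and 2.13 for ADAR2 E396A (SE 0.07, limma adjusted p = 6.48e-06). These counts hold the construct and the cells' own Adarb1 together. Per kilobase of exon Adarb1 was at 1634 and 1686 with ADAR2 WT, 1388 and 1324 with ADAR2 E396A, and 326 and 296 with the empty vector, below Thy1 on the same scale in every library. A transgene need not hold all annotated exons, so the per-kilobase level of Adarb1 with a construct is uncertain.

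Among the 4 construct libraries the order of Thy1 was exactly the reverse of that of Adarb1: the ADAR2 WT library of donor B had the most Adarb1 and the least Thy1, followed by the ADAR2 WT library of donor A, the ADAR2 E396A library of donor A and that of donor B. The reversal does not extend to the empty-vector libraries, where donor A had more of both transcripts. With 4 libraries this order is a description, and it runs together with the difference between the constructs, from which it cannot be told apart.

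The size of the Thy1 difference was then set against genes of like abundance, the 325 other tested genes whose mean over the 6 libraries was within 2-fold of that of Thy1. None of them was as low as Thy1 in any of the 4 differences of a construct library from the empty-vector library of its donor. The nearest was Penk, the proenkephalin gene, at -0.81 beside -0.89 for Thy1 with ADAR2 E396A in donor B. Over both donors the central 95% of these genes had log2 fold changes between -0.29 and 0.36 with ADAR2 WT and between -0.15 and 0.14 with ADAR2 E396A, around medians of -0.01 and -0.02. The lowest gene after Thy1 with ADAR2 WT was Xist, a long noncoding RNA gene, at -0.43 (SE 0.06, limma adjusted p = 0.0352). The lowest protein-coding gene after Thy1 was Emb, the embigin gene, at -0.39 (SE 0.11) with ADAR2 WT, and Penk at -0.40 (SE 0.16) with ADAR2 E396A. Thy1 lay well beyond Xist, Emb and Penk.

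Larger negative values did occur among less abundant genes. Over all 14957 other tested genes, 136 had a fitted log2 fold change below that of Thy1 with ADAR2 WT, and 71 with ADAR2 E396A. The like-abundance genes also show how far the libraries of the 2 donors differed within a group. Each donor gave 1 library per group, so the donor cannot be told apart from its culture, transduction and library preparation. Between the empty-vector libraries, donor A over donor B, Thy1 differed by 0.18 on the log2 scale, beside a median of 0.08 and a central 95% range of -0.44 to 0.51. Between the ADAR2 WT libraries it differed by 0.12 and between the ADAR2 E396A libraries by -0.02. In each group Thy1 was thus well inside the range of genes of its abundance, whereas Il17a differed by -1.44 with ADAR2 WT, -2.79 with ADAR2 E396A and -1.93 with the empty vector. In the contrast of ADAR2 WT with ADAR2 E396A, 20 of the 325 genes were lower than Thy1.

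**Figure D2:**
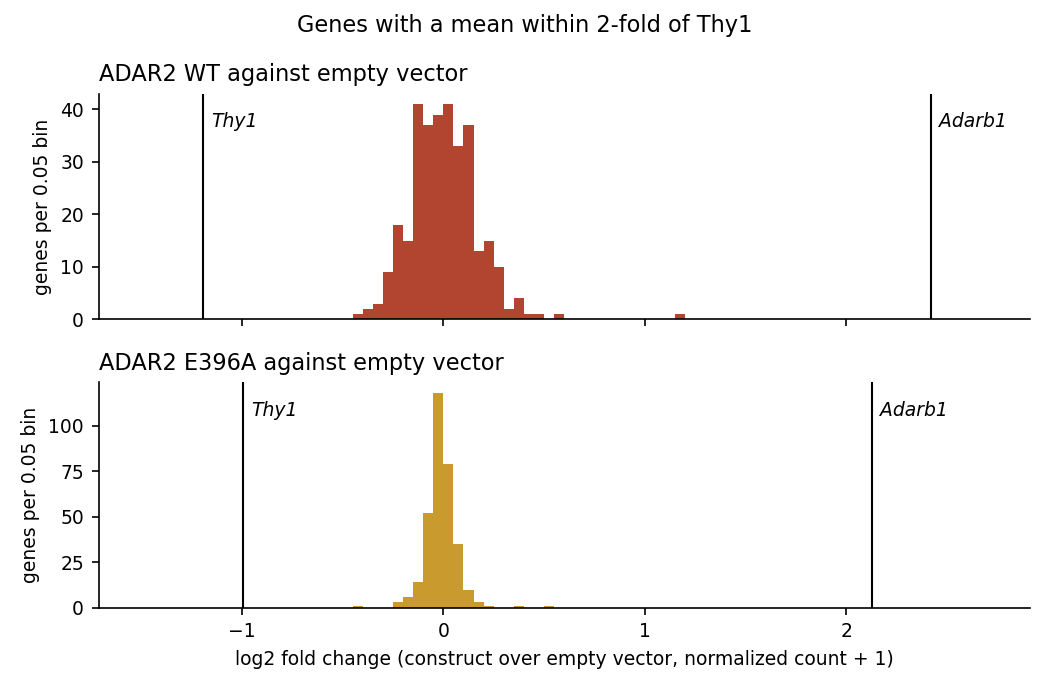
Histograms of log2 fold changes of genes whose mean is within 2-fold of that of Thy1, for ADAR2 WT (top) and ADAR2 E396A (bottom), each over the empty vector; the axis is the log2 fold change and the height the number of genes per bin, and lines mark Thy1 and Adarb1. Thy1 lies at -1.19 and -0.99, to the left of all 325 others in each panel.

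Being lower in all 4 construct libraries than in both empty-vector libraries was common: 820 of 14958 genes, or 5.48%, had that order. The distance between the groups was not. Of those genes 10 had a gap of at least 1.5-fold between the highest construct and the lowest empty-vector library, and of the 10770 genes whose mean was 50 normalized counts or more Thy1 alone had it. In the other direction 781 genes, or 5.22%, were higher in all 4 construct libraries, 21 with such a gap. With a mean of at least 50, these were Adarb1, with a gap of 4.06-fold, and Mttp, the gene of a microsomal lipid transfer protein, with 1.55-fold. The pattern is that for which Thy1 was chosen, so its place in these counts is a description.

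Next, genes were ranked by how closely their levels across the 6 libraries followed those of Thy1. Likeness was measured as the root mean square difference of log2 levels after each gene's own mean was taken off, over 10210 protein-coding genes with a mean of at least 50. A gene with no change at all would be 0.52 from Thy1 on this measure, and the median gene was 0.54 from it. The closest genes were Sox4, which encodes an HMG-box transcription factor, at 0.21, and H2afy, which encodes the histone variant macroH2A1, at 0.22. Lancl3, Npdc1, Olig2, which encodes a basic helix-loop-helix transcription factor, Styk1, which encodes a kinase-like membrane protein, Ccdc141 and Fam49a followed, the last at 0.29.

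H2afy was the one abundant gene among them. It was at 4661 and 3865 normalized counts with ADAR2 WT, 5280 and 4668 with ADAR2 E396A, and 8668 and 6294 with the empty vector. Like Thy1 it was lowest with ADAR2 WT in each donor and highest with the empty vector, with no overlap between constructs and empty vector, but its log2 fold changes were smaller, -0.80 (SE 0.08) with ADAR2 WT and -0.57 (SE 0.08) with ADAR2 E396A. Sox4 was at 46.6 and 45.0 with ADAR2 WT, 55.2 and 52.3 with ADAR2 E396A, and 76.0 and 95.4 with the empty vector. The 7 genes other than H2afy had means between 59.7 and 81.5 normalized counts, where counting error is wide. Their log2 fold changes ran from -1.53 to -0.70 with ADAR2 WT and from -0.72 to -0.38 with ADAR2 E396A. In all 8 genes both log2 fold changes were negative, as the choice of close profiles makes likely.

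The 4 genes whose profile was closest to that of Thy1 turned upside down were Zfr, Ccdc154, Mttp and Coch. Zfr, the gene of a zinc finger protein that binds double-stranded RNA, was at 4651 and 4758 normalized counts with ADAR2 WT, 4117 and 4334 with ADAR2 E396A, and 2719 and 2988 with the empty vector. Its log2 fold changes were 0.72 (SE 0.06) with ADAR2 WT and 0.57 (SE 0.06) with ADAR2 E396A. Mttp was the one of the 4 with more transcript under ADAR2 E396A, at 108.7 and 107.3 with ADAR2 WT, 135.0 and 123.8 with ADAR2 E396A, and 68.7 and 58.4 with the empty vector. All 12 genes were picked on these libraries, so no test is given for them, and likeness of level says nothing of shared function.

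**Figure D3:**
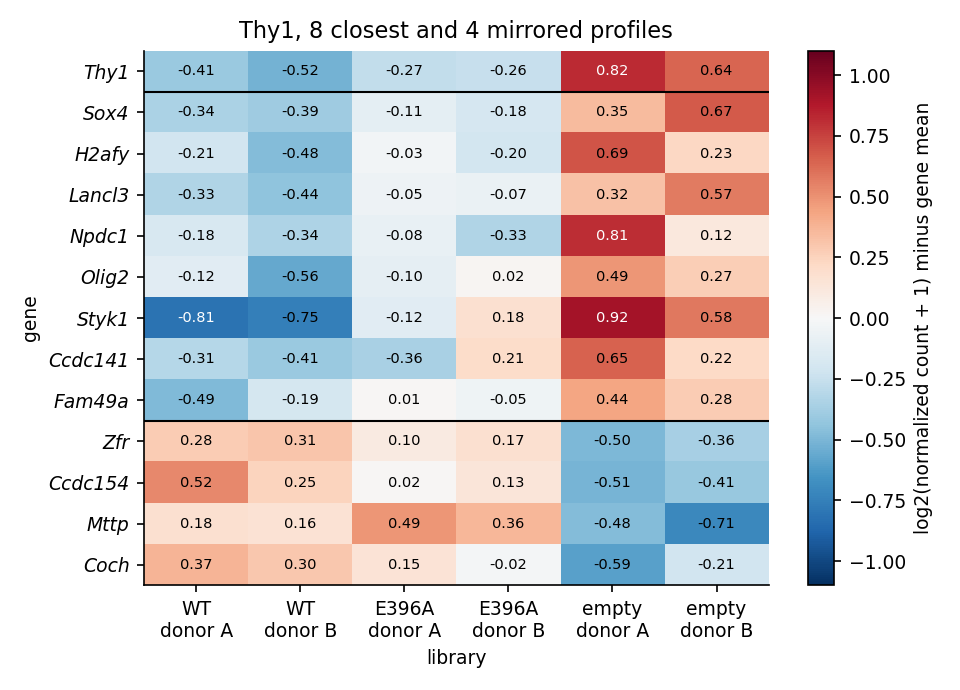
Heat map of log2(normalized count + 1) minus the gene's own mean, in the 6 libraries (columns: ADAR2 WT, ADAR2 E396A and empty vector, donors A and B) for Thy1, the 8 genes with the closest profile and the 4 with the closest mirrored profile (rows). Thy1 is at -0.41 and -0.52 with ADAR2 WT, -0.27 and -0.26 with ADAR2 E396A, and 0.82 and 0.64 with the empty vector; none of the 8 close genes has as wide a gap between its highest construct and its lowest empty-vector library.

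The surroundings of Thy1 on chromosome 9 were examined because position had no part in its choice. Within 500 kb on either side, 27 of 60 annotated genes were tested. None had a limma adjusted p under 0.05 in any of the 3 comparisons, where 0.816% of all tested genes passed for ADAR2 WT against empty vector, 0.0134% for ADAR2 E396A against empty vector and 0.0669% for ADAR2 WT against ADAR2 E396A. At an unadjusted p under 0.05 they were 11, 0 and 6 of 27, where 14.1%, 3.89% and 12.4% of all tested genes had such a p in the same order of comparisons. By edgeR 0 passed in each comparison. By DESeq2 0 passed against the empty vector with either construct, and 1, Gm39323, between the constructs. Median log2 fold changes of the 27 were -0.10 with ADAR2 WT and -0.03 with ADAR2 E396A, beside -0.0025 and -0.0095 over all genes, and 16 and 15 of 27 were negative.

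Gm39323 is a long noncoding RNA gene 2.3 kb upstream of Thy1, transcribed from the other strand, and was singled out here after its values were seen. It was at 492.2 and 537.6 normalized counts with ADAR2 WT, 802.9 and 750.5 with ADAR2 E396A, and 740.4 and 685.6 with the empty vector. The ADAR2 WT libraries were the lowest, while those with ADAR2 E396A were above those with the empty vector, an order unlike that of Thy1. The log2 fold changes were -0.47 (SE 0.10, limma adjusted p = 0.0803) with ADAR2 WT and 0.12 (SE 0.10, limma adjusted p = 0.999) with ADAR2 E396A.

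The nearest protein-coding genes on the right were Usp2, which encodes a ubiquitin-specific protease, 18.4 kb away, Rnf26, a RING finger protein gene, at 47.1 kb, and Mfrp at 53.2 kb. Usp2 was at 109.7 and 138.4 normalized counts with ADAR2 WT, 94.6 and 93.3 with ADAR2 E396A, and 76.0 and 136.3 with the empty vector. On the left the nearest were much farther off: Oaf at 803.5 kb, Tmem136 at 926.8 kb and Arhgef12 at 936.1 kb. Log2 fold changes of these 6 genes ran from -0.35 for Mfrp to 0.42 for Tmem136 with ADAR2 WT and from -0.70 for Oaf to 0.04 for Rnf26 with ADAR2 E396A. None of the 6 passed limma's test in any comparison, and none had the order of groups that Thy1 had in both donors.

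**Figure D4:**
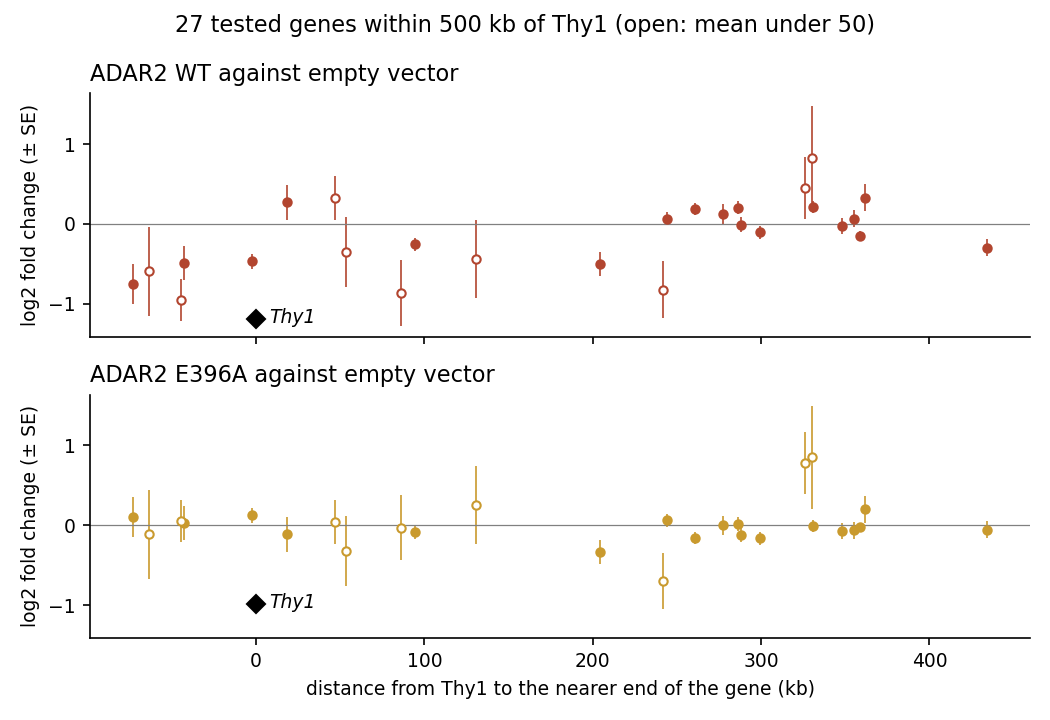
Log2 fold changes with SE of the 27 tested genes within 500 kb of Thy1 for ADAR2 WT (top) and ADAR2 E396A (bottom), each over the empty vector, by distance from Thy1 in kb; open points have a mean under 50 normalized counts and the diamond is Thy1. Thy1 lies at -1.19 and -0.99, and the neighbours scatter between -0.96 and 0.83 with ADAR2 WT and between -0.70 and 0.85 with ADAR2 E396A, the widest of them with large errors.

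Thy-1 shares its lipid anchor with many other surface proteins. Of 40 genes of GPI-anchored surface proteins, 26 were tested. With ADAR2 WT 3 of the 26 fell and none rose, where 0.374% of all tested genes fell and 0.441% rose. With ADAR2 E396A 0 of 26 passed by limma, edgeR or DESeq2, where 0.00669% of all tested genes fell and 0.00669% rose. An unadjusted limma p under 0.05 was found for 6 of 26 with ADAR2 WT, where 14.1% of all tested genes had one. With ADAR2 E396A it was 1 of 26, beside 3.89% of all tested genes. The median log2 fold change of the 26 was -0.17 with ADAR2 WT and -0.14 with ADAR2 E396A, beside -0.0025 and -0.0095 over all genes, and 18 and 14 of 26 were negative.

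The genes that fell with ADAR2 WT were Bst1, Ly6c1 and Sema7a. Bst1, which encodes CD157, an ectoenzyme of the ADP-ribosyl cyclase family, was at 71.8 and 26.5 normalized counts with ADAR2 WT, 294.6 and 95.01 with ADAR2 E396A, and 360.3 and 120.8 with the empty vector. Both ADAR2 WT libraries lay below all 4 others, while ADAR2 E396A and the empty vector overlapped and donor A was the higher in each group. Bst1 fell with ADAR2 WT by a log2 difference of -2.23 (SE 0.16, limma adjusted p = 0.0017), and the difference was -0.32 (SE 0.16, limma adjusted p = 0.999) with ADAR2 E396A. Ly6c1, the gene of the Ly-6C antigen, was at 241.8 and 84.2 with ADAR2 WT, 632.5 and 276.3 with ADAR2 E396A, and 744.6 and 188.0 with the empty vector. ADAR2 WT overlapped the empty vector but not ADAR2 E396A, and within each donor it was the lowest. With ADAR2 WT its log2 difference from the empty vector was -1.38 (SE 0.18, limma adjusted p = 0.024), and it was 0.16 (SE 0.18, limma adjusted p = 0.999) with ADAR2 E396A.

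Sema7a encodes semaphorin 7A, an adhesion and guidance protein. It was at 684.5 and 865.3 normalized counts with ADAR2 WT, 1198 and 1020 with ADAR2 E396A, and 1315 and 1455 with the empty vector. All construct libraries lay below both empty-vector libraries, as for Thy1, and the log2 difference of Sema7a was -0.85 for ADAR2 WT (SE 0.12, limma adjusted p = 0.0352) and -0.32 (SE 0.12, limma adjusted p = 0.999) with ADAR2 E396A. Without the donor term none of the 3 passed by limma (adjusted p = 0.755 for Bst1, 0.801 for Ly6c1 and 0.453 for Sema7a). Without the ADAR2 WT library of donor A none passed either, with log2 fold changes of -2.13, -1.35 and -0.66 (limma adjusted p = 0.178, 0.608 and 0.772 in the same order), and without that of donor B Ly6c1 (-1.42, adjusted p = 0.18) and Sema7a (-1.03, adjusted p = 0.116) did not.

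The abundant GPI-anchored genes stood closer to the empty vector. Cd24a, the heat-stable antigen gene, whose mean was nearest that of Thy1, was at 11567 and 10519 normalized counts with ADAR2 WT, 13077 and 12861 with ADAR2 E396A, and 12256 and 11283 with the empty vector. ADAR2 WT and the empty vector overlapped, ADAR2 E396A lay above all 4 other libraries, and the log2 fold changes were -0.09 (SE 0.06) and 0.14 (SE 0.06) for ADAR2 WT and ADAR2 E396A. Ly6a, which encodes the stem cell antigen Sca-1, was at 9715 and 7999 with ADAR2 WT, 11735 and 10097 with ADAR2 E396A, and 11597 and 10032 with the empty vector. Its log2 fold changes were -0.29 (SE 0.06, limma adjusted p = 0.0811) with ADAR2 WT and 0.01 (SE 0.06) with ADAR2 E396A. DESeq2 added Ly6a to the 3 lower genes with ADAR2 WT, while edgeR called 3. Ly6e had -0.15 and 0.12, and Ulbp1, listed through its family although its mouse protein spans the membrane, had 0.15 and -0.18. Of the 26 genes, Sema7a and the low Cd59a (mean 10.2 normalized counts) had all 4 construct libraries below both empty-vector libraries, beside 5.48% of all genes.

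Between the constructs, Bst1 and Ly6c1 were the 2 of 26 GPI-anchored genes that passed by limma, both lower with ADAR2 WT. Of all tested genes 0.0535% were lower. DESeq2 added Ly6a, also lower with ADAR2 WT. At an unadjusted limma p under 0.05 were 15 of 26, beside 12.4% of all tested genes. Of the 26 log2 differences 16 were negative, beside 49.1% over all tested genes. The log2 differences of Bst1 and Ly6c1 were -1.91 (SE 0.16, limma adjusted p = 0.0116) and -1.54 (SE 0.18, limma adjusted p = 0.0269). Thy1, with -0.20, did not show such a distance. Neither call held without the donor term (limma adjusted p = 0.911 for each), without the ADAR2 WT library of donor A (-1.81 and -1.50, adjusted p = 0.742 and 0.994) or without that of donor B (-2.01 and -1.58, adjusted p = 0.0811 and 0.252).

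For the machinery that makes and attaches the anchor, all 25 listed genes were tested. None of 25 genes of GPI synthesis and attachment passed limma's test in any comparison, with 0, 0 and 1 at an unadjusted p under 0.05 for ADAR2 WT against empty vector, ADAR2 E396A against empty vector and ADAR2 WT against ADAR2 E396A (14.1%, 3.89% and 12.4% of all tested genes), and none by edgeR or DESeq2. Their median log2 fold change was 0.03 with ADAR2 WT and 0.02 with ADAR2 E396A. Pigk, the catalytic subunit of the transamidase that joins anchor and protein, was at 1375 and 1180 normalized counts with ADAR2 WT, 1410 and 1112 with ADAR2 E396A, and 1380 and 1392 with the empty vector. Pigs, another transamidase subunit, was the 1 of 25 with all 4 construct libraries below both empty-vector libraries, an order found in 5.48% of all tested genes. Its log2 fold changes were small, -0.17 (SE 0.08) with ADAR2 WT and -0.16 (SE 0.08) with ADAR2 E396A. Pigm, the mannosyltransferase that adds the first mannose, had 0.05 and 0.04, and Pign, which modifies that mannose, -0.13 and -0.01.

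Of 10 genes of anchor remodelling and export, 9 were tested and none passed limma's test in any comparison, with 4, 0 and 2 of 9 at an unadjusted p under 0.05 in the same order (14.1%, 3.89% and 12.4% of all tested genes), and none by edgeR or DESeq2. The export receptor genes Tmed2, Tmed5, Tmed9 and Tmed10, whose products load GPI-anchored cargo into transport vesicles, had log2 fold changes between 0.08 and 0.22 with ADAR2 WT and between -0.06 and 0.03 with ADAR2 E396A. Tmed10, the most abundant, was at 4100 and 3680 normalized counts with ADAR2 WT, 3738 and 3457 with ADAR2 E396A, and 3719 and 3414 with the empty vector. Pgap2, a remodelling enzyme gene, was the 1 of 9 with all construct libraries below both empty-vector libraries, an order found in 5.48% of all tested genes. Its log2 fold changes were -0.29 (SE 0.13) with ADAR2 WT and -0.07 (SE 0.13) with ADAR2 E396A.

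Partners of Thy-1 and the kinases and adaptors of the raft membrane made up a list of 12, of which 11 were tested. The list holds integrin genes, since Thy-1 binds integrins of the alpha-V and beta-2 kind, and Adgre5, whose product CD97 binds human Thy-1. None passed limma's test in any comparison, with 4, 2 and 2 of 11 at an unadjusted p under 0.05 (14.1%, 3.89% and 12.4% of all tested genes), and none by edgeR or DESeq2. The median log2 fold change was -0.11 with ADAR2 WT and -0.06 with ADAR2 E396A. Lck, the Src-family kinase gene of T cells, was at 7484 and 7042 normalized counts with ADAR2 WT, 7693 and 7673 with ADAR2 E396A, and 8168 and 7674 with the empty vector. Its log2 fold changes were -0.13 (SE 0.06) and -0.04 (SE 0.06). Lat, the adaptor gene downstream of the T cell receptor, was the 1 of 11 with all construct libraries below both empty-vector libraries. That order was found in 5.48% of all tested genes. Lat was at 4371 and 4075 with ADAR2 WT, 4058 and 4384 with ADAR2 E396A, and 4907 and 4808 with the empty vector. It had -0.20 (SE 0.07) with ADAR2 WT and -0.20 (SE 0.07) with ADAR2 E396A. The integrin chain genes Itgav and Itgb2 had 0.00 and -0.26 with ADAR2 WT, against -0.18 and -0.06 in the cells with ADAR2 E396A.

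T cell surface glycoprotein genes with a membrane-spanning protein served as the other comparison for a T cell marker. All 19 were tested and none passed limma's test in any comparison, with 9, 2 and 6 of 19 at an unadjusted p under 0.05 (14.1%, 3.89% and 12.4% of all tested genes), and none by edgeR. By DESeq2 Il7r, the interleukin 7 receptor gene, was lower with ADAR2 WT than with the empty vector and than with ADAR2 E396A, and none passed for ADAR2 E396A against empty vector. The median log2 fold change was -0.20 with ADAR2 WT and -0.07 with ADAR2 E396A, and the members ranged from -0.61 to 0.21 and from -0.33 to 0.12. Ptprc, which encodes CD45, was at 20406 and 21811 normalized counts with ADAR2 WT, 21071 and 19984 with ADAR2 E396A, and 21773 and 21640 with the empty vector. Cd2 was at 16295 and 16331 with ADAR2 WT, 15180 and 15844 with ADAR2 E396A, and 16062 and 14316 with the empty vector. Differences between groups of these genes were small: Ptprc with ADAR2 E396A lay below both empty-vector libraries and Cd2 with ADAR2 WT above all 4 other libraries, and the other pairs of groups overlapped. Il2ra, the interleukin 2 receptor alpha chain gene, stood 0.06 (SE 0.07) above the empty vector on the log2 scale with ADAR2 WT, and for ADAR2 E396A its difference was -0.01 (SE 0.07). Spn, which encodes CD43, had differences of -0.13 with ADAR2 WT and -0.07 with ADAR2 E396A (SE 0.08 each). None of the 19 had all construct libraries below both empty-vector libraries, an order found in 5.48% of all tested genes.

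Of the markers of other cells, 4 of the 6 CD8 and NK genes were tested, and Klrc1 and Klrd1, the genes of the paired NKG2A and CD94 receptor chains, fell with ADAR2 WT, where 0.374% of all tested genes fell. Klrd1 was at 18.4 and 34.6 normalized counts with ADAR2 WT, 104.4 and 108.9 with ADAR2 E396A, and 172.9 and 109.1 with the empty vector. The ADAR2 WT libraries were far below the others, and those with ADAR2 E396A were just under the lower empty-vector library. Against the empty vector the log2 differences with ADAR2 WT were -1.88 for Klrc1 (SE 0.18, limma adjusted p = 0.0075) and -2.39 for Klrd1 (SE 0.33, limma adjusted p = 0.0248). Neither passed without the donor term (limma adjusted p = 0.346 and 0.382) or the ADAR2 WT library of donor A (-1.86 and -1.81, limma adjusted p = 0.512 and 0.555). Klrc1 also did not pass once donor B's ADAR2 WT library was dropped (-1.90, limma adjusted p = 0.0993), nor Klrd1 once donor A's empty-vector library was (-1.83, limma adjusted p = 0.0631). With ADAR2 E396A 0 of 4 passed by limma, edgeR or DESeq2, where 0.0134% of all tested genes passed by limma. Of the 4, 0 had an unadjusted limma p under 0.05, beside 3.89% of all tested genes. Cd8a and Cd8b1, the CD8 chain genes, had log2 differences of -0.46 (SE 0.55) and 0.21 (SE 0.16) with ADAR2 WT. The 8 tested B cell, myeloid, gamma-delta T cell, and stromal and endothelial markers (Cd79a, Cd79b, Cd14, Cd68, Trdc, Sox13, Pecam1 and Pdgfrb) had log2 differences from -0.23 to 0.86 with ADAR2 WT and from -0.74 to 1.14 with ADAR2 E396A. None of the 8 passed against the empty vector by limma, edgeR or DESeq2, where limma passed 0.816% (ADAR2 WT) and 0.0134% (ADAR2 E396A) of all tested genes. Of the 8, 0 had an unadjusted limma p under 0.05, beside 14.1% and 3.89% of all tested genes. So few markers would seldom hold a passing gene at these shares.

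**Figure D5:**
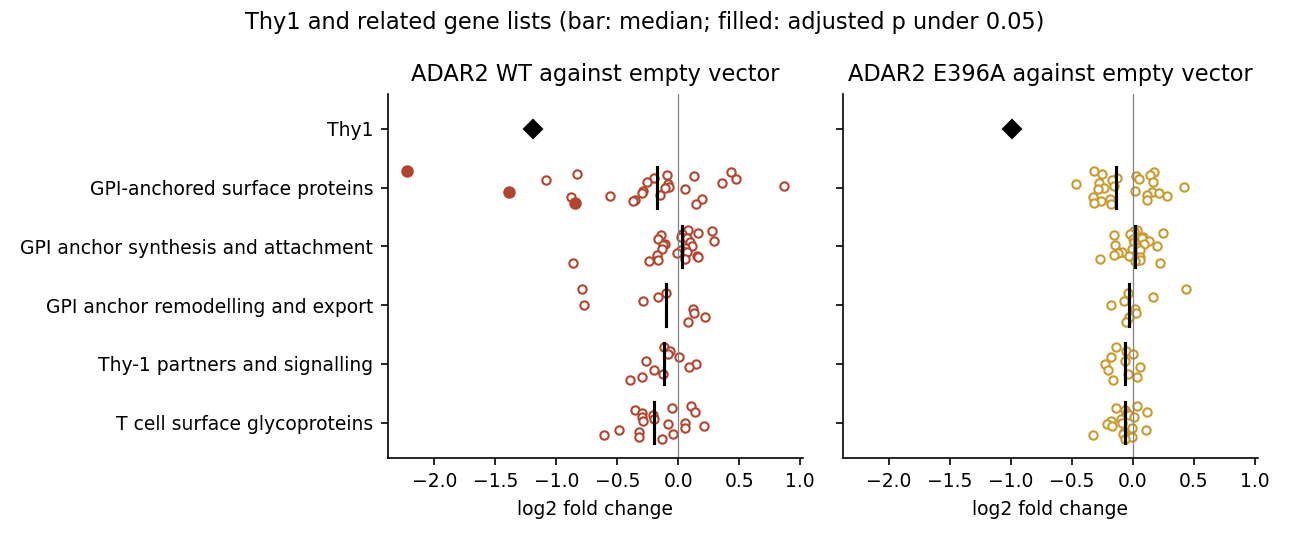
Log2 fold changes of Thy1 (diamond) and of the tested members of 5 gene lists (circles) for ADAR2 WT (left) and ADAR2 E396A (right), each over the empty vector; filled circles have an adjusted p under 0.05 and bars are list medians. Thy1 lies at -1.19 with ADAR2 WT, where Bst1 and Ly6c1 lie lower, and at -0.99 with ADAR2 E396A, where the lowest list member is at -0.47.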

How the data were processed

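Libraries were made from ribosome-depleted RNA, per the labels' protocols. The submitters' processing notes name STAR 2.6.1a, featureCounts, DESeq2 1.18.1 and the mm10 build. The annotation, strand setting and other options of the counting are not stated there. The authors deposited 1 table per construct with normalized counts per library, a signal that is never negative. Per the file headers, the other columns are the mean, the log2 fold change with its SE, the Wald statistic (a score), the p-value and the adjusted p-value.

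All library values were whole reads over 1 factor (100% within 0.001 of a read), so reads were recovered. The series text states that donors were paired. Donors were assigned by refitting DESeq2 to the reads: the pairing used returned the deposited Wald statistics to within 0.0008 (ADAR2 WT) and 0.0011 (ADAR2 E396A), where crossed pairs differed by up to 13.8 and 6.08. It is not known which donor is which labelled replicate. With a donor term in the fit, p-values rest on how far differences between groups disagreed between the 2 donors. That spread is partly shared across genes.

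Reads were scaled by median-of-ratios factors over the 6 libraries and filtered with edgeR's filterByExpr. The log2 of normalized count + 1 was tested by limma 3.58.1 (R 4.3.3) with terms for group and donor, and p was adjusted by Benjamini-Hochberg over 14958 genes, with 0.05 as the threshold. Folds of low genes are understated on that scale. The planned limma test named no mean-variance trend, and a trend was added after the fit was tested on simulated data; the fit without it passed 0 genes and is given among the alternatives.

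Thy1 and all gene lists were chosen with earlier results of these data known. Genes named were Thy1, Adarb1, the 8 closest and 4 mirrored profiles, the 3 nearest tested coding genes on each side, and of each list the members passing against the empty vector and up to 4 others with the highest mean. Il17a, Il17f, Rora, Il23r and Ccr6 were listed as Th17 markers. Il17a was set beside Thy1 for the distance between donors after its values were seen. Others named (Xist, Emb, Penk, Gm39323, Il7r, Cd59a, Pgap2) were also chosen after their values were seen. Gene positions are from GENCODE vM21. As alternatives, edgeR 4.0.16 and DESeq2 1.42.0 were run, scaling, filter and pseudocount were varied, the donor block was dropped, each comparison was fitted on its own 4 libraries, and every library was omitted in turn. Editing of RNA was not measured, and no sequence of Thy1 is shown.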

Additional observations from a re-analysis of the deposited data

Results flagged for a closer look

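A difference between ADAR2 WT and ADAR2 E396A, each set against the same empty vector, passed limma's test for 3 named genes, none of which is Thy1. Bst1 was lower with ADAR2 WT than with ADAR2 E396A by a log2 difference of -1.91 (SE 0.16, limma adjusted p = 0.0116). Ly6c1 was lower by -1.54 (SE 0.18, limma adjusted p = 0.0269). Klrc1, the gene of the NKG2A receptor chain and the most abundant of the CD8 and NK markers, was at 238.8 and 320.7 normalized counts with ADAR2 WT, against 697.5 and 1243 in cells with ADAR2 E396A, a log2 difference of -1.75 (SE 0.18, limma adjusted p = 0.0268). Klrc1 did not pass without the donor block (limma adjusted p = 0.911) or when either ADAR2 WT library was left out (-1.72, adjusted p = 0.994 without donor A and -1.77, adjusted p = 0.183 without donor B). For Thy1 the same difference was -0.20 (limma adjusted p = 0.298). All 3 genes were lower in both donors.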

How the results depend on the processing

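The log2 fold change of Thy1 kept its sign under all alternatives run and, over fits of 5 or 6 libraries or of a comparison's own 4, lay between -1.26 and -1.13 with ADAR2 WT, between -1.07 and -0.91 with ADAR2 E396A and between -0.28 and -0.12 for ADAR2 WT against ADAR2 E396A. The ends came from leaving out an empty-vector library for ADAR2 WT (-1.1265 without that of donor A, -1.2552 without that of donor B) and an ADAR2 E396A library for the others. In each donor alone, with no test, the ADAR2 E396A value was -1.09 in donor A and -0.89 in donor B. The direct contrast of Thy1 passed under none of the alternatives with a test (adjusted p between 0.0583 and 0.994). Adarb1 passed against the empty vector under all alternatives with a test but limma without a trend, where its log2 fold changes were the same, 2.42 and 2.13, with adjusted p = 0.32 and 0.706 for ADAR2 WT and ADAR2 E396A.

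Counts of genes passing moved far more, and the cause was not tested. In the order ADAR2 WT against empty vector, ADAR2 E396A against empty vector and ADAR2 WT against ADAR2 E396A, limma gave 122, 2 and 10. DESeq2 gave 214, 7 and 109, and no filter on low counts 220, 5 and 102. Without the donor (replicate) block limma gave 2, 1 and 0 (947, 197 and 732 at an unadjusted p under 0.05), and as first planned, without the mean-variance trend that was added after the data were seen, 0, 0 and 0 (1556, 757 and 1359). The 4 libraries of a comparison alone gave 1237, 1 and 194. Leaving out a library gave 1 to 1217, 1 to 127 and 0 to 844. For ADAR2 WT against empty vector the counts were 1 and 6 when ADAR2 WT was left out in donor A or in donor B, 941 and 1217 when ADAR2 E396A was, and 66 and 913 when the empty vector was. For ADAR2 E396A against empty vector they were 1 and 2, 127 and 120, and 8 and 7 in the same order, and for ADAR2 WT against ADAR2 E396A 0 (686 at an unadjusted p under 0.05) and 2, 844 and 217, and 467 and 425. The other scalings moved the median of all genes by under 0.1. With 2 donors, small changes of genes as low as most of the close profiles cannot be resolved at this depth.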
